A study of Homo sapiens with 4 samples.

Results

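The genes described here encode the proteins of the mitochondrial ribosome. They were chosen by symbol: a protein-coding RefSeq gene on chromosomes 1 to 22 or X was a member if its symbol starts with MRPL or MRPS followed by a digit. The rule found 77 of 19821 protein-coding genes, 49 with a large-subunit symbol (MRPL) and 28 with a small-subunit symbol (MRPS). The transcription factors ETS1 and RUNX1 were mapped by CUT&Tag, a method that tethers the transposase Tn5 to chromatin through an antibody and sequences the DNA it cuts, in 6T-CEM, a cell line that the labels give as T-cell acute lymphoblastic leukaemia (T-ALL) cells. Each antibody was used in 2 libraries, so there are 4 libraries of 1 line, and the labels name no treatment, time or other genotype. They also do not say if the 2 libraries of an antibody are separate cultures, and the spread between them may be technical only.

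The mitochondrial ribosome translates the few messages of mitochondrial DNA, which encode core subunits of the respiratory chain and of ATP synthase. Its RNAs come from mitochondrial DNA, but its proteins are encoded in the nucleus, translated in the cytosol and imported. ETS1 and RUNX1 are lymphoid transcription factors; ETS proteins, a family that also includes the widely expressed GABPA, recognise a GGAA core, and RUNX proteins recognise TGTGGT or close variants.

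A gene counted as bound when a region with a peak in both libraries of an antibody touched the 1000 bases on either side of an outermost end of the gene, and the values below are the authors' fold over IgG, the antibody control. Both factors lay at the ends of 21 members (27.3%, beside 18.6% of other genes), RUNX1 alone at 30, ETS1 alone at 1 (MRPS27) and neither at 25. ETS1 was thus at 22 of 77 members (28.6%, 95% Wilson interval 19.7 to 39.5%), beside 19.0% of the 19744 other protein-coding genes. RUNX1 was at 51 of 77 (66.2%, 55.1 to 75.8%), beside 47.1% of the others. Both shares lie above the background share, and neither interval includes it. For ETS1 the margin is narrow: in library 1 alone the interval, 20.8 to 40.8%, includes the 21.5% of other genes, and so does that of peaks with −log10 q of 10 or more, 15.3 to 34% beside 16.7%. For RUNX1 the order depends on the number of peaks: with 5611 peaks per library its share was 10.4%, below the 13.9% of other genes.

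The promoter sequences of 7 members show what the DNA next to these regions looks like. They were chosen for the letters they hold and for the contrast between letters and binding: MRPS21, MRPL51 and MRPS34 carry the letters CCGGAAG of an ETS site and were bound by ETS1, MRPS24 carries TGTGGT of a RUNX site, MRPS18B carries neither and had the highest ETS1 fold of the members, and MRPL20 and MRPS22 carry the ETS letters without an ETS1 region. Each line gives the 130 bases before the annotated start, 5′ to 3′ on the strand of the gene, from RefSeq on GRCh38.p14 (hg38). Capitals mark the ETS letters, which read CTTCCGG on the opposite strand, and in MRPS24 the RUNX letters.
MRPS21: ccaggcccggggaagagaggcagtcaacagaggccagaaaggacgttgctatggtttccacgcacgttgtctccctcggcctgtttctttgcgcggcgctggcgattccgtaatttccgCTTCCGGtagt
MRPL51: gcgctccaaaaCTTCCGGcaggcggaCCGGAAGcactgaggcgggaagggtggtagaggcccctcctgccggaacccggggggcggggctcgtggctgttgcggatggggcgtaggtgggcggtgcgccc
MRPS34: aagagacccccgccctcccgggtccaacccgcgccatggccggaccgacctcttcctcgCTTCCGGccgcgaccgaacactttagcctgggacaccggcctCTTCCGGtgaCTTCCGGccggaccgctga
MRPS24: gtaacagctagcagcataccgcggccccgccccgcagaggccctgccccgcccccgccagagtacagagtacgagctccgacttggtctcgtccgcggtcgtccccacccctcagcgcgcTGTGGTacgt
MRPS18B: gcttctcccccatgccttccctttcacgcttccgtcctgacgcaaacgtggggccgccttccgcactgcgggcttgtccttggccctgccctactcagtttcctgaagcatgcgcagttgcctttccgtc
MRPL20: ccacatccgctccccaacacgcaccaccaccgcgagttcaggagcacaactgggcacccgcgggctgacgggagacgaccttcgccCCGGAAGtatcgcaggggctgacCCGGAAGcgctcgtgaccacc
MRPS22: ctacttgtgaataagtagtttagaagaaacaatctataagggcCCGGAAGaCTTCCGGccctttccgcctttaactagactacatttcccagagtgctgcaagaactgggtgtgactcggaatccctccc
The stretches are chr1:150293731-150293860 (plus strand), chr12:6493263-6493392 (minus strand), chr16:1773135-1773264 (minus strand), chr7:43869518-43869647 (minus strand), chr6:30617710-30617839 (plus strand), chr1:1407294-1407423 (minus strand) and chr3:139343864-139343993 (plus strand). In MRPS34 the letters occur 3 times, beginning 71, 29 and 19 bases before the start.

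The highest ETS1 fold of the members was at MRPS18B, which encodes one of the related S18 proteins of the mitochondrial ribosome. ETS1 reached 19.1 in library 1 and 20.8 in library 2 there (mean 19.9 ± 1.22, SD, n = 2), and RUNX1 reached 15.9 and 16.0 (16.0 ± 0.0952). The ETS1 region, 30617142 to 30618110 on chromosome 6, covers the start of MRPS18B, and 97.3% of the bound other genes had a lower ETS1 fold. Its summits lay 122 and 117 bases before the start. A peak cannot tell more cells bound from more signal per bound cell.

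MRPL54, a large-subunit protein with no bacterial counterpart, followed for ETS1 and led for RUNX1. ETS1 stood at 13.3 and 12.5 (12.9 ± 0.528) and RUNX1 at 33.5 and 35.4 (34.4 ± 1.29), with all 4 summits 147 to 149 bases after the start. The RUNX1 pileup of 541 and 544 fragments was the deepest of any member, and 95.6% of bound other genes had a lower RUNX1 fold. MRPL54 was the only member with 2 ETS1 regions at its ends. The second was centred 885 bases before the start, at 8.64 and 8.0. APBA3 starts on the opposite strand, 990 bases from the MRPL54 start, so this second region cannot be given to MRPL54 alone.

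At MRPS21 and MRPS24, counterparts of the bacterial small-subunit proteins S21 and S3, the ETS1 fold exceeded that of RUNX1. MRPS21 had ETS1 at 11.5 and 10.3 (10.9 ± 0.800) and RUNX1 at 7.20 and 8.52 (7.86 ± 0.928). These folds rest on shallow peaks, with an ETS1 pileup of 44 and 37 fragments over an IgG expectation of 2.93 and 2.68. MRPS24 had ETS1 at 8.80 and 10.3 (9.56 ± 1.08) and RUNX1 at 8.09 and 7.01 (7.55 ± 0.765). With MRPS18B these were the only 3 of the 21 members with both factors (14.3%) where the mean ETS1 fold was the higher, beside 8.26% of 3680 other genes with both. In each of the 3 genes the lower ETS1 value lay above the higher RUNX1 value.

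The remaining members among the 10 highest ETS1 folds ran from 9.41 down to 6.88. MRPL4, whose bacterial counterpart lines the tunnel of the nascent protein, had ETS1 at 9.75 and 9.08 and RUNX1 at 11.5 and 11.9. MRPL51, a protein specific to the mitochondrial ribosome, had ETS1 at 9.35 and 8.75 and RUNX1 at 16.6 and 17.3. MRPL12, a protein of the stalk that recruits translation factors, had ETS1 at 7.77 and 7.84 and RUNX1 at 11.3 and 9.66. In all 3 genes both RUNX1 libraries lay above both ETS1 libraries. The same held at MRPL34, a small protein of the large subunit, with ETS1 at 8.60 and 6.36 and RUNX1 at 15.4 and 15.9.

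MRPL40, a large-subunit protein, was the member whose RUNX1 libraries differed most. ETS1 was at 6.85 and 6.91, but RUNX1 was at 12.4 in library 1 and 26.8 in library 2 (19.6 ± 10.1). The RUNX1 pileup was not higher in library 2 (97 fragments against 123). What differed was the IgG expectation under the summit, 2.66 against 8.96, and the 2 summits lay 583 bases apart inside 1 broad region. The high RUNX1 rank of MRPL40 therefore rests on library 2. The library 2 summit lay 892 bases before the MRPL40 start, and that of library 1 lay 309 bases before it. HIRA starts on the opposite strand, 812 bases from the MRPL40 start, so the library 2 value cannot be given to MRPL40 alone.

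MRPS27, a small-subunit protein of the pentatricopeptide-repeat family, was the only member with ETS1 alone at an end (1.30% of members, beside 0.329% of other genes). ETS1 reached 7.65 and 8.45 (8.05 ± 0.566), in a region on chromosome 5 from 72319922 to 72320626 that holds the start of MRPS27 and, 133 bases away on the opposite strand, that of PTCD2. RUNX1 had a peak at the same summit in library 1 only, at 3.14 with a pileup of 54 fragments, and none in library 2, so the class turns on 1 weak peak. Inside the gene, 11788 to 11943 bases after the start, both factors had peaks in both libraries, RUNX1 at 11.2 ± 1.5 and ETS1 at 4.72 ± 0.193.

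**Figure D1:**
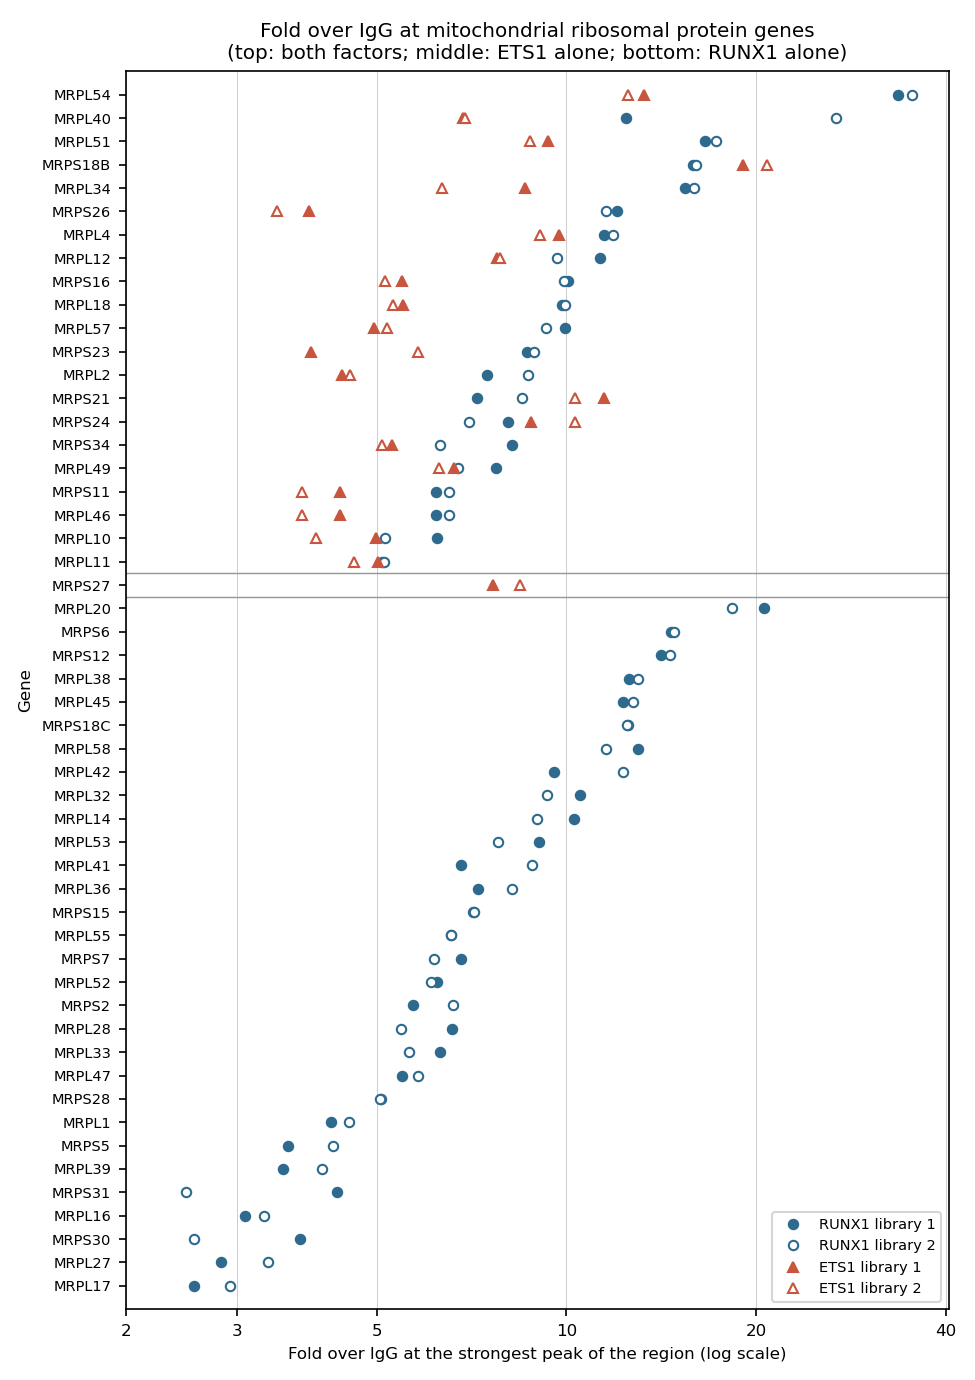
Fold over IgG (x axis, log scale) in each library at the 52 members with a region at an end (y axis), as triangles for ETS1 and circles for RUNX1, filled for library 1 and open for library 2; MRPL46 and MRPS11 share 1 region. MRPS18B is at the far right for ETS1 and MRPL54 for RUNX1, and at MRPL40 the RUNX1 libraries stand at 12.4 and 26.8.

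The lowest ETS1 folds among members with both factors were at MRPS26, MRPL46 and MRPS11. MRPS26, a small-subunit protein without a bacterial counterpart, had ETS1 at 3.90 and 3.47 (3.69 ± 0.304) although RUNX1 stood at 12 and 11.5. MRPL46 and MRPS11 are read in opposite directions from starts 320 bases apart, so 1 protein of each subunit comes from this site, and they share 1 region of each factor. There ETS1 was at 4.38 and 3.80 (4.09 ± 0.410) and RUNX1 at 6.22 and 6.52 (6.37 ± 0.213). It was the only region of either factor that covered ends of 2 members.

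The other members with both factors had ETS1 means between 4.47 and 6.45: MRPL49, MRPL18, MRPS16, MRPS34, MRPL57, MRPS23, MRPL11, MRPL10 and MRPL2. MRPL10 and MRPL11 belong to the stalk base. MRPL10 had ETS1 at 4.5 ± 0.704 and RUNX1 at 5.69 ± 0.761, with both RUNX1 libraries above both ETS1 libraries, and MRPL11 had 4.82 ± 0.300 and 5.12 ± 0.0182. At MRPL2, a protein next to the peptidyl transferase centre, the ETS1 region of both libraries lay beyond the lower end of the gene (4.40 and 4.54), and a peak of 6.44 at its upper end appeared in library 1 only.

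RUNX1 alone was found at 30 members (39.0%, beside 28.4% of other genes). The highest was MRPL20, whose bacterial counterpart binds ribosomal RNA early in assembly, at 20.6 and 18.3 (19.4 ± 1.63). MRPS6, a counterpart of bacterial S6, had 14.7 and 14.8, and MRPS12, the protein of the decoding centre, had 14.1 and 14.6. MRPL38 had 12.6 and 13.0, and MRPL45, which sits near the inner membrane, had 12.3 and 12.8. With a window of 2000 bases MRPS15, at 7.13 in the 1000-base window, reached 29.7 and passed MRPL20. The 5 genes MRPL20, MRPS6, MRPS12, MRPL38 and MRPL45 lay above the median RUNX1 fold of bound other genes, 8.62, in both libraries.

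The other 25 members with RUNX1 alone ranged from 12.5 down to 2.74. In falling order of fold they were MRPS18C, MRPL58, MRPL42, MRPL32, MRPL14, MRPL53, MRPL41, MRPL36, MRPS15, MRPL55, MRPS7, MRPL52, MRPS2, MRPL28, MRPL33, MRPL47, MRPS28, MRPL1, MRPS5, MRPL39, MRPS31, MRPL16, MRPS30, MRPL27 and MRPL17. MRPL58 is a peptide release factor that has become a ribosomal protein. ETS1 had a peak in 1 library only at 4 of the 30: MRPL20 (library 2, 8.06), MRPS12 (library 1, 4.85), MRPL14 (library 2, 3.98) and MRPS18C (library 2, 3.02). For MRPL20 that single value exceeds the ETS1 mean of all but 6 bound members, so its class depends on the rule that both libraries must have a peak.

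Neither factor was at an end of 25 members (32.5%, beside 52.6% of other genes): MRPL3, MRPL9, MRPL13, MRPL15, MRPL19, MRPL21, MRPL22, MRPL23, MRPL24, MRPL30, MRPL35, MRPL37, MRPL43, MRPL44, MRPL48, MRPL50, MRPS9, MRPS10, MRPS14, MRPS17, MRPS18A, MRPS22, MRPS25, MRPS33 and MRPS35. No region of either factor lay anywhere in 23 of these genes. MRPL24 had both factors inside the gene: its outermost end lies upstream of another annotated start, and at that start ETS1 stood at 4.78 ± 0.279 and RUNX1 at 5.78 ± 0.135. MRPS25 had RUNX1 inside the gene, and in library 1 only a RUNX1 peak of 4.10 at its start; MRPL21 likewise had a RUNX1 peak of 4.56 in library 1 only. Counting MRPL24 and MRPS25, 7 of the 25 had a RUNX1 region in the gene or within 10 kb of it.

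Among the 51 members with RUNX1, 21 had ETS1 (41.2%), close to the 39.6% of other genes with RUNX1. Members with both factors had a higher median RUNX1 fold (9.61) than those with RUNX1 alone (6.53), and in other genes the medians were 13.0 and 6.81. The ranges overlapped widely, 5.12 to 34.4 with both and 2.74 to 19.4 with RUNX1 alone, and 21 of the 30 members with RUNX1 alone lay above the lowest member with both. When bound genes were split into 4 classes of RUNX1 fold, at 5.75, 8.62 and 14.3, so that each held as many other genes, ETS1 was at 2 of 12 members in the lowest class, 7 of 17 in the next, 7 of 14 above that and 5 of 8 in the highest. In percent these are 16.7, 41.2, 50 and 62.5, beside 10.8, 27.8, 49.2 and 70.5 in other genes. In both groups of genes the share rose from class to class.

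The folds themselves were near those of bound other genes when all peaks and both libraries were used. The median ETS1 fold of the 22 bound members was 5.93, beside 5.92 in bound other genes, and 11 of the 22 lay above that median. For RUNX1 the median was 7.81 beside 8.62, with 22 of 51 members above it. The ETS1 order depended on the setting. In library 1 alone the medians were 6.44 and 5.55, and with −log10 q of 20 or more they were 8.55 and 7.69, the members being higher in both. With a window of 500 bases they were 5.41 and 5.93, and with summits in the window 5.41 and 5.89, the members being lower in both. Of the 22 members bound by ETS1, 2 reached the top 10% of bound other genes, and of the 51 bound by RUNX1, 1 did. The ratio of ETS1 to RUNX1 fold at genes with both had a median of 0.642 in members and 0.484 in other genes.

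The higher RUNX1 share of the members was found at each step of −log10 q up to 50 and not at 75 or 100. When a −log10 q of 20 or more was required, RUNX1 was at 51.9% of members and 38.9% of others. At 30 the shares were 44.2% (33.6 to 55.3%) and 33.1%. At 50 they were 29.9% (20.8 to 40.8%) and 25%, so the interval included the share of the others. At 75 they were 18.2% and 18.7%, and at 100 they were 11.7% and 14.2%, with the others now higher but inside the members' intervals, 11.2 to 28.2% and 6.27 to 20.7%. The order also turned when each RUNX1 library was reduced to its 5611 strongest peaks by p, the number in the smaller ETS1 list: RUNX1 was then at 8 members (10.4%) beside 13.9% of others. Those 8 were MRPL34, MRPL38, MRPL51, MRPL54, MRPS6, MRPS12, MRPS18B and MRPS18C. For ETS1 the members stayed above the others at every threshold tried, but 6 members or fewer were left from 30 upward. The shares were 15.6% (9.15 to 25.3%) beside 10.8% at 20, 7.79% (3.62 to 16.0%) beside 7.23% at 30. At 100 they were 2.60% (0.715 to 8.98%) beside 1.22%. The members' ETS1 interval included the share of the others at every step from 10 upward.

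**Figure D2:**
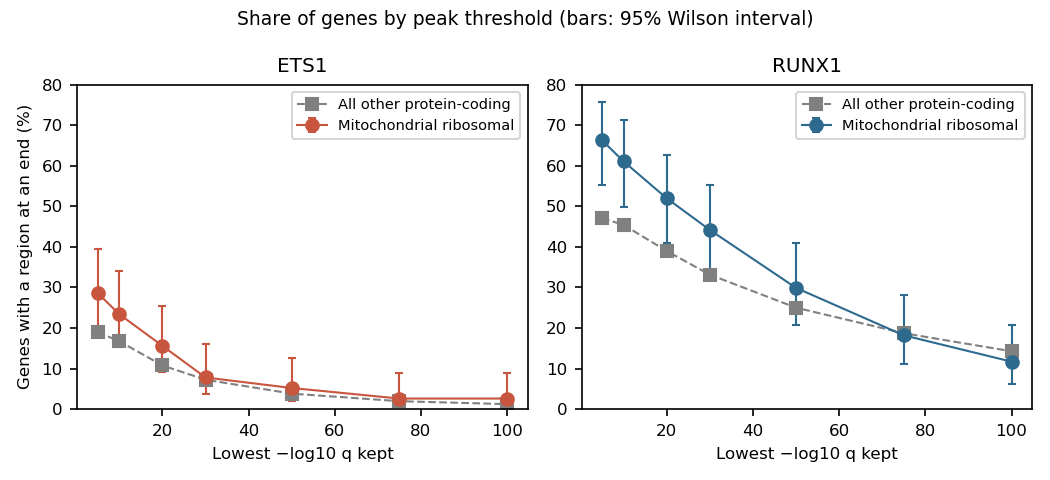
Share of genes with a region at an end (y axis, percent) against the lowest −log10 q kept (x axis), for members as circles with 95% Wilson intervals and for all other protein-coding genes as squares; the first point holds all peaks. The RUNX1 lines meet near 75, where the shares are 18.2% and 18.7%, and the ETS1 line of the members runs above that of the others.

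Counted per library, ETS1 had a peak at the ends of 23 and 25 members (29.9% and 32.5%, beside 21.5% and 20.4% of others) and RUNX1 at 54 and 51 (70.1% and 66.2%, beside 49.1% and 48.1%). ETS1 had a mean share of 31.2 ± 1.84% and RUNX1 one of 68.2 ± 2.75% (SD, n = 2), a difference of 37.0 percentage points. Both RUNX1 libraries lay above both ETS1 libraries, but an exact permutation test over 2 against 2 libraries gave p = 0.333 (two-sided), the smallest this design allows. The RUNX1 lists hold more peaks, 25360 and 25001 against 6082 and 5625, and with 5611 peaks per library the order reversed, with ETS1 19.5 points above RUNX1. The 2 shares cannot be read as a difference between the factors apart from the number of peaks called.

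Within the family, the members were counted by symbol, MRPL or MRPS, and by the origin of the protein. The symbols were not checked against the subunit that holds each protein. ETS1 was at 13 of 49 MRPL genes (26.5%) and 9 of 28 MRPS genes (32.1%), and RUNX1 at 33 (67.3%) and 18 (64.3%). Of the 48 members listed as having a counterpart in bacterial ribosomes, 12 had ETS1 (25%) and 32 had RUNX1 (66.7%). The place of MRPL55, with RUNX1 alone, on that list is in doubt. Of the 29 members not on it, taken as specific to mitochondria, 10 had ETS1 (34.5%) and 19 had RUNX1 (65.5%). The Wilson intervals of each pair overlap, for ETS1 14.9 to 38.8% and 19.9 to 52.7% in the pair by origin. The differences were not tested, and groups of this size do not show that the shares are alike.

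Of the gene families most like it, the cytosolic ribosome had a higher ETS1 share and oxidative phosphorylation a similar one. Among 81 genes of cytosolic ribosomal proteins, ETS1 was at 37 (45.7%, 35.3 to 56.5%) and RUNX1 at 61 (75.3%). Among 87 nuclear genes of oxidative phosphorylation, whose partners in the respiratory chain the mitochondrial ribosome makes, ETS1 was at 27 (31.0%) and RUNX1 at 58 (66.7%), close to the mitochondrial ribosome for both factors. No test was run over genes, which are not replicates, and the ETS1 intervals of the 2 ribosomes overlap.

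**Figure D3:**
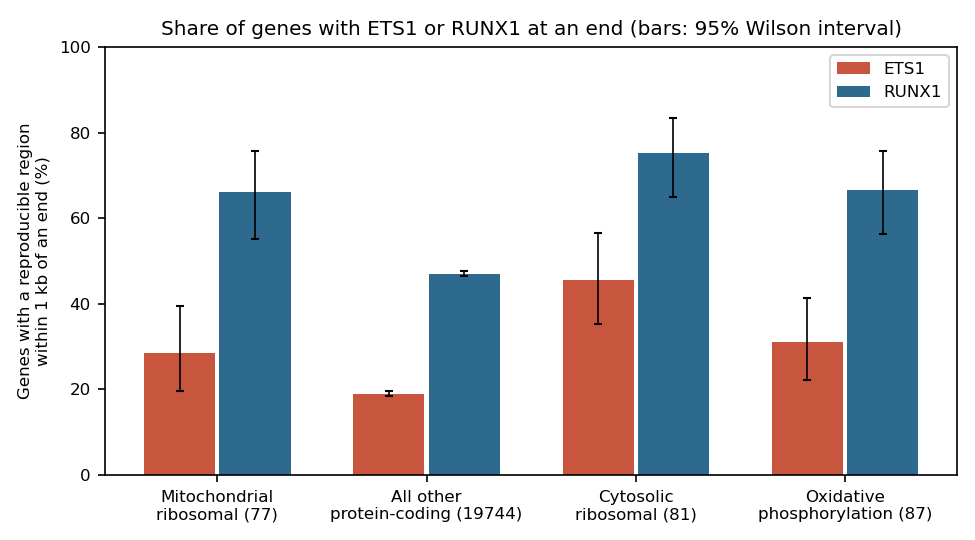
Share of genes with a reproducible ETS1 (red) or RUNX1 (blue) region within 1 kb of an end (y axis, percent) in 4 groups of genes (x axis, number of genes in brackets), with 95% Wilson intervals as bars. Members reach 28.6% and 66.2%, all other protein-coding genes 19.0% and 47.1%.

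Other genes of mitochondrial gene expression were read the same way. The 6 proteins of the mitochondrial ribosome list that carry other symbols all had both factors, beside 18.6% of other genes. DAP3, a GTP-binding protein of the small subunit, had the highest ETS1 fold of these (16.4 ± 0.413, RUNX1 26.9 ± 0.178). CHCHD1 had 9.34 ± 3.21 and 25 ± 0.282, PTCD3 had 9.03 ± 0.779 and 11.7 ± 0.706, and AURKAIP1 had the highest RUNX1 fold (83.4 ± 0.233) with a low ETS1 fold (4.68 ± 0.0361). GADD45GIP1 and KGD4 had ETS1 at 5.47 and 4.96; KGD4 was first named as a ribosomal protein and later placed in the 2-oxoglutarate dehydrogenase complex. With only 6 genes the Wilson interval runs from 61.0 to 100%.

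In the next 4 lists the counts stand beside 19.0% of other protein-coding genes for ETS1 and 47.1% for RUNX1. Of 22 genes of ribosome assembly and ribosomal RNA modification, 8 had ETS1 (36.4%) and 19 had RUNX1 (86.4%), led for ETS1 by YBEY (10.1 ± 0.0421), METTL17 and RBFA, a ribosome-binding factor with the highest RUNX1 fold of this list (19.0 ± 0.969). Of 16 translation factors, 4 had ETS1 (25%) and 10 had RUNX1 (62.5%), with LRPPRC, which stabilises mitochondrial messages, at 8.37 ± 0.0175 for ETS1 and 5.39 ± 0.473 for RUNX1. Of 20 genes that charge mitochondrial transfer RNAs, 2 had ETS1 (EARS2 and CARS2), a share below that of other genes, and 13 had RUNX1. Of 10 genes listed under mitochondrial transcription and its regulation, 3 had ETS1 (POLG, TFB2M and GABPA) and 8 had RUNX1. The list holds POLG although it encodes the catalytic subunit of the mitochondrial DNA polymerase and is not a transcription gene. POLG stood at 25 ± 1.06 for ETS1, above every MRPL and MRPS gene. TFAM and POLRMT had RUNX1 alone, at 12.3 ± 1.17 and 12.1 ± 1.32.

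Summits clustered at the starts of the members. Of the 77, 69 had annotated starts in the promoter table (85 starts in all), and the others were MRPL2, MRPL10, MRPL13, MRPL15, MRPL21, MRPL23, MRPL35 and MRPS28. The ETS1 summit lay within 250 bases of a start at 17 of 20 members (85.0%, beside 63.6% of other genes) and within 500 at all 20. The RUNX1 summit lay within 250 bases at 43 of 48 (89.6%, beside 63.4%) and beyond 1000 at 1, MRPL36. Only the strongest region of a gene was read, and MRPL36 had a weaker RUNX1 region within 1 kb of its annotated start (mean fold 6.00). The median position relative to the start was −59.5 bases for ETS1 and −68 for RUNX1 (negative is before the start), beside −84 and −23 in other genes. Of the ETS1 summits 13 of 20 (65.0%) were upstream, beside 61.1%, and of the RUNX1 summits 30 of 48 (62.5%), beside 53.2%. Where both factors were present their summits were close, with a median gap of 47 bases in library 1 and 54 in library 2 over the 21 members. At MRPL4 the gap was 1 base in both libraries, and at MRPL51 6 and 0.

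**Figure D4:**
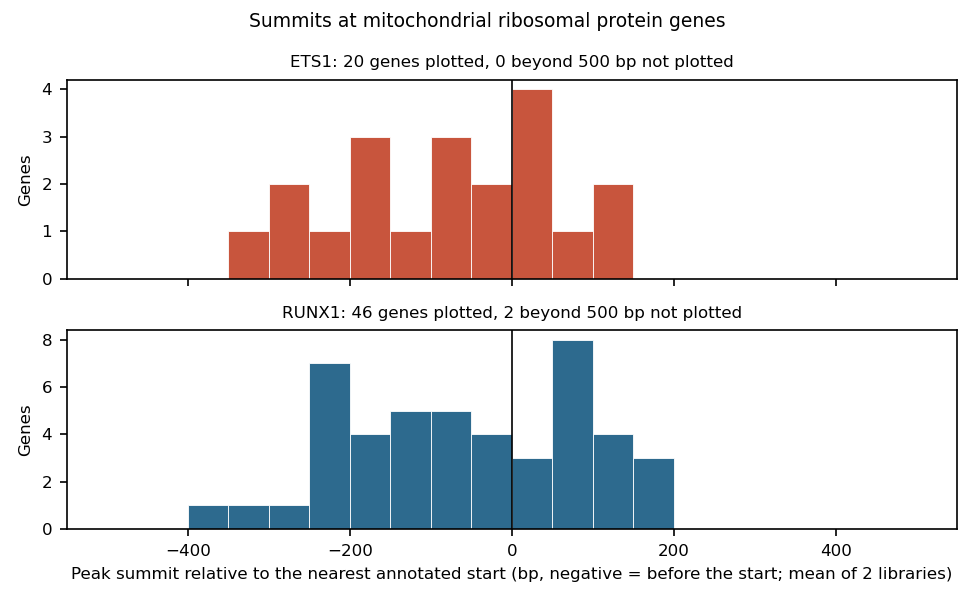
Histogram of the mean summit position over the 2 libraries relative to the nearest annotated start (x axis, bases, negative before the start) against the number of members (y axis) for ETS1 (top) and RUNX1 (bottom). Most members lie within 250 bases of the start, with medians of −59.5 and −68 bases.

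ETS1 shares were higher at members that share their start region with another gene. A gene on the opposite strand started within 1 kb of 23 of 69 members (33.3%), beside 13.5% of 15744 other genes. ETS1 was at 12 of these 23 (52.2%, 33.0 to 70.8%) and at 8 of the 46 without such a neighbour (17.4%, 9.09 to 30.7%), beside 42.9% and 16.8% in other genes. Without such a neighbour, members and other genes had nearly the same ETS1 share. RUNX1 was at 18 of 23 (78.3%) and 30 of 46 (65.2%), beside 75.7% and 44.5%. The 12 members with ETS1 and such a neighbour were MRPS18B (PPP1R10), MRPL54 (APBA3), MRPL51 (NCAPD2), MRPS27 (PTCD2), MRPL34 (ABHD8), MRPL40 (HIRA), MRPL49 (FAU), MRPL18 (TCP1), MRPS34 (EME2), MRPL57 (SKA3), and MRPL46 with MRPS11. MRPL49 and FAU start 49 bases apart, and FAU encodes a cytosolic ribosomal protein fused to a ubiquitin-like protein. A region over starts this close cannot be given to either gene. MRPS12 and SARS2, which start 181 bases apart and encode a ribosomal protein and the synthetase for mitochondrial serine transfer RNA, had RUNX1 alone in 1 shared region.

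The ETS letters were frequent in these promoters whether or not ETS1 was there. The windows run from 250 bases before to 50 after each start, and both strands were searched. CCGGAAG was in 30 of 69 members (43.5%, 32.4 to 55.2%), beside 16.4% of other genes and 10.3% of all 35116 promoters in the table. The median GC content was 61.0% in members and 64.7% in other genes, and a part of base composition in these shares was not tested. In 25 of the 30 the letters began within 50 bases of the start, and 8 members held more than 1 site. AAGATGG, the letters of YY1, was in 24 of 69 (34.8%, beside 7.78% of other genes and 5.84% of all promoters). TGTGGT of RUNX was in 7 of 69 (10.1%), beside 14.5% and 13.1%. GGGCGG of SP and KLF factors was in 60.9% (64.3% of other genes, 45.0% of all promoters), CCAAT of NFY in 33.3% (42.1%, 34.6%), CACGTG of the E-box in 13.0% (10.9%, 7.26%) and GCGCATG of NRF1 in 10.1% (6.80%, 4.43%). Matches are of letters only, and none of the 7 motifs contains another.

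ETS1 was at 9 of the 30 members with ETS letters (30%) and at 11 of the 39 without (28.2%). In other genes the shares were 34.5% and 17.5%. The member intervals, 16.7 to 47.9% and 16.5 to 43.8%, hold the shares of other genes on both sides, so these 69 genes do not exclude a gap of that size. Of the 30 members with the letters, 9 had both factors, 13 RUNX1 alone and 8 neither. MRPS22, a small-subunit protein, is one of the 8: 2 of its sites lie 87 and 79 bases before the start. MRPL20 has sites 44 and 21 bases before its start, where RUNX1 stood at 19.4 and ETS1 had its peak in 1 library only.

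At the 9 members with letters and ETS1, the letters lay a median of 101 bases from the nearest ETS1 summit (range 17 to 376), within 100 bases at 4. At MRPS21 the nearest site lay 17 bases from a summit, and at MRPL51 the sites, 119 and 104 bases before the start, lay 36 and 21 bases from one. At MRPS24 the RUNX letters, 10 bases before the start, lay 3 bases from a summit of each factor. MRPS18B, the member with the most ETS1, held neither the ETS nor the RUNX letters in its window. Only the 7 letters CCGGAAG were searched for ETS, and the shorter GGAA core occurs in the printed MRPS18B stretch, read on the opposite strand as TTCC. RUNX1 was at 6 of the 7 members with TGTGGT (85.7%, 48.7 to 97.4%) and 42 of the 62 without (67.7%). In other genes the order was the opposite, 44.5% with the letters and 49.4% without. The interval of the 7 members includes the 67.7% of members without the letters. At the 6 with RUNX1, the letters lay from 3 bases (MRPS24) to 2818 bases (MRPL34) from the nearest RUNX1 summit.

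**Figure D5:**
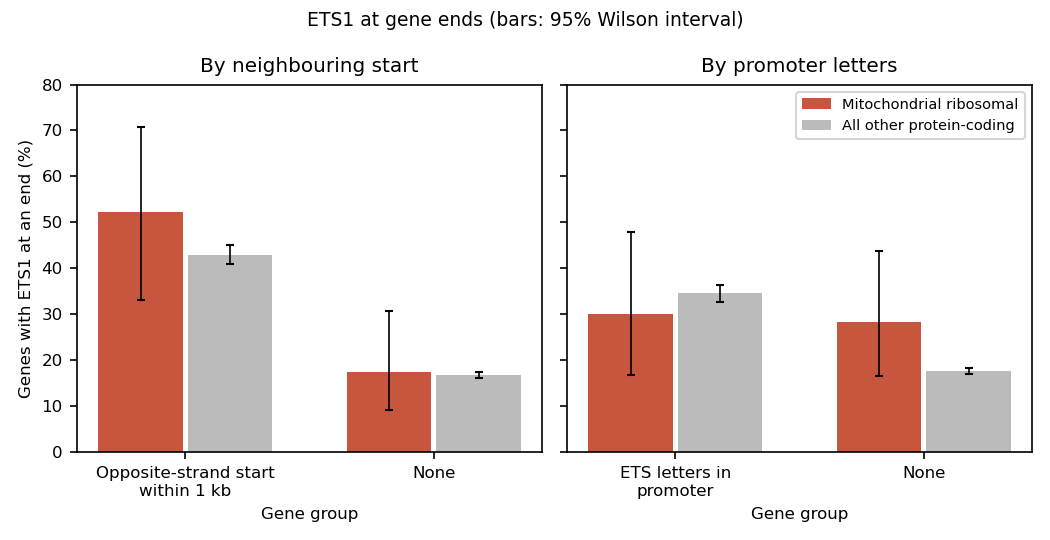
Share of genes with ETS1 at an end (y axis, percent, bars 95% Wilson intervals) for members (red) and all other protein-coding genes (grey), split by an opposite-strand start within 1 kb (left) and by ETS letters in the promoter (right). Members stand at 52.2% and 17.4% by neighbour and at 30% and 28.2% by letters; other genes stand at 42.9% and 16.8%, and at 34.5% and 17.5%.

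Repeat libraries gave close folds at most members with a region, which by the rule has a peak in both libraries. Left out of these ratios are the members with a peak in 1 library only, 4 for ETS1 and 3 for RUNX1. The median absolute log2 ratio between the folds of the 2 libraries was 0.11 for ETS1 and 0.14 for RUNX1, and the largest were 0.57 and 1.11, the latter at MRPL40. Pileups at the members ran from 28 to 187 fragments for ETS1 and from 36 to 544 for RUNX1. The cell type given by the labels was read from T-cell genes: RUNX1 was at 8 and ETS1 at 4 of 9 T-cell markers (CD3D, CD3E, CD3G, CD7, CD2, CD5, LCK, CD1A and PTCRA). Over all other protein-coding genes the shares were 47.1% and 19.0%. Binding is not expression, so these counts do not show which of the genes were active.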

How the data were processed

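ETS1 and RUNX1 CUT&Tag in 6T-CEM cells gave 4 deposited peak lists, 2 per antibody. Per the submitters' processing notes, bcl2fastq 2.17, Bowtie2 and MACS3 3.0.0a6 were used with hg38. The authors called peaks in each library against IgG, per the names inside the lists. The sources used here give neither thresholds nor read depth. The fold over IgG (a ratio), −log10 p and −log10 q are the authors' deposited values for each peak. The deposited score was not used.

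Touching peaks of both libraries were merged into regions and set against RefSeq gene ends. A gene's fold is that of its region with the highest mean, taking the strongest peak of each library. Of the protein-coding genes, 153 placed on scaffolds were left out. Pileup and IgG expectation were solved from fold and −log10 p (within 0.01 for 100% of peaks), with the solver tested on simulated data. They are counts scaled by the caller, and no raw depth is known. All intervals given are on counts of genes and do not cover the spread between libraries. Wilson intervals treat genes as independent, which neighbours are not. The exact permutation test ran over libraries. Python 3.11.15, pandas 2.3.3, scipy 1.17.1 and statsmodels 0.14.6 were used.

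The members and lists were chosen with earlier results of these data known. All 77 members are classed. Values per library are given for the 10 highest folds of each factor, members with ETS1 alone or with ETS1 above RUNX1, the 3 lowest ETS1 folds and shared regions. Other members given with values, among them MRPL24, MRPL2, MRPL10 and MRPL11, and the printed promoters were chosen after their values were seen. Alternatives changed the window, the −log10 q, the summit rule, the number of peaks, the annotation and the libraries used.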

Additional observations from a re-analysis of the deposited data

How the results depend on the processing

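The members' ETS1 share lay above that of the other genes under all settings run, from 27.3% to 33.8% except where the lowest −log10 q was raised (15.6%, others 10.8%, at 20). The RUNX1 share did so except at −log10 q of 75 and 100 (18.2% and 11.7%, others 18.7% and 14.2%) and with 5611 peaks per library, where it was 10.4% (others 13.9%) ranked by p and 9.09% (others 11.4%) ranked by fold. The ranking by fold, the steps of −log10 q beside 20 and the difference without single libraries were chosen after seeing the data. With 5611 peaks the ETS1 minus RUNX1 difference reversed to 19.5 points; under the other settings it ran from −39.9 to −35.1. The median ETS1 fold was 8.55 with −log10 q of at least 20 (others 7.69), 5.41 with 500 bp (5.93) or with summits in the window (5.89), 6.37 with 2000 bp (5.99), 6.45 with starts alone (5.89), and 5.83 to 6.44 without 1 library (5.73 and 5.55). The median RUNX1 fold was 9.62 with −log10 q of at least 20 (others 10), 15.2 with 5611 peaks by p (18.9), 16.0 by fold (21.6), and 7.36 to 8.19 without 1 library (8.46 and 8.31). Fewer peaks entered where the threshold was raised or the number of peaks lowered; other causes were not tested. With 2000 bp the RUNX1 fold at MRPS15 moved from 7.13 to 29.7 and the ETS1 fold at MRPS16 from 5.31 to 9.19. With library number as a replicate block the difference was −37.0 points (exact permutation p = 0.5, two-sided, the smallest this blocked design allows). Library differences of the 2 factors did not go together over 3701 genes with both (r = 0.0104). That correlation covers only genes with a peak in every library, and it cannot show whether libraries of the same number share a culture.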
